A study of Mus musculus with 8 samples.

Results

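The clustered protocadherin locus of the mouse kidney was described here at CpG resolution. The assay was RRBS (reduced representation bisulfite sequencing). DNA is digested with MspI, which recognises CCGG, and treated with bisulfite, after which only methylated cytosines are still read as C. The locus was taken as chr18:37090001-38002000 of the mouse build mm9, a stretch of 912 kb that holds an alpha, a beta and a gamma part. Its members were the CpG positions in this stretch that had at least 10 reads in every library. They numbered 671 of the 976938 such positions in the series. Of these, 145 lay in the alpha part (chr18:37090001-37360000), 107 in the beta part (chr18:37400001-37670000) and 390 in the gamma part (chr18:37800001-38002000). The stretch between alpha and beta held 4 positions, and the stretch between beta and gamma held 25. Grouped into windows of 1000 bp with at least 3 positions, they filled 80 of the 93730 windows of the series, with 16 in alpha, 17 in beta, 44 in gamma and 3 between beta and gamma. They were 38.0% of the 1766 CpG positions of the locus with a read in any library.

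Clustered protocadherins are cell-surface adhesion proteins of the cadherin superfamily, best known from neurons, where each cell uses its own combination of them as an identity tag. Each alpha and gamma gene joins a variable exon, with a promoter of its own, to constant exons shared by its cluster, while the beta genes have no constant exons. In neurons the choice of promoter goes with its methylation, written in part by Dnmt3b, and with looping by CTCF and cohesin, whereas the C-type genes at the end of the alpha and gamma clusters are used more evenly. In the kidney the locus is known mainly from Wilms tumour, in which long stretches of it are hypermethylated.

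The RefSeq gene table at hand, built on GRCm38, orders 58 clustered protocadherin genes along chromosome 18. They are 14 alpha genes, ending with Pcdhac1 and Pcdhac2, then 22 beta genes, Pcdhb1 to Pcdhb22, and 22 gamma genes, ending with Pcdhgc3, Pcdhgc4 and Pcdhgc5, with 1 pseudogene among the gamma genes. Slc25a2, which encodes a mitochondrial ornithine carrier, and Taf7, which encodes a subunit of the general transcription factor TFIID, lie between the beta and the gamma genes, and Diaph1, which encodes a formin that builds actin filaments, follows the last gamma gene. Because that table is on another build than the files, no window below was assigned to a single gene, exon or promoter, and windows are named by their mm9 coordinates. The bounds of the parts are those of the rule and not of an annotation.

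All 8 libraries were made from kidney cortex with outer medulla, taken from male wild type C57BL/6J mice, and the labels give no age. UUO with 5AZA (2 libraries) was unilateral ureteral obstruction, a surgical model of kidney fibrosis in which 1 ureter is tied off, sampled at 7 days, with 5AZA given at 1 mg per kg per day in saline into the peritoneum. UUO (2 libraries) was the same obstruction without 5AZA, and the labels do not say whether these mice received saline. UUO sham (1 library) was the matching sham operation. Ischemia 1 week and ischemia 1 month (1 library each) were kidneys after 25 minutes of clamping of both renal pedicles and 1 week or 1 month of reperfusion, and ischemia sham (1 library) was their sham, with no time given. The title of the series concerns hypermethylation in renal fibrosis, and the labels do not name the animal behind each library, so p-values measure the spread between libraries, which may be technical. The deposited tables hold no expression, so the labelled tissue was not checked against marker genes.

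The libraries held 57853745 to 86411736 reads over CpG positions, of which 38033 to 57085 lay at the 671 positions of the locus. The median position of the locus had 52 to 76 reads, and the median window had 339.5 to 466 reads, with a range over windows and libraries of 42 to 3131. A read that spans several positions is counted at each, so exact binomial intervals of windows are too narrow even for counting error. They also leave out the spread between libraries. In bulk tissue, a change in methylation within cells and a change in the share of cells of a type cannot be told apart.

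RRBS reads of this protocol carry a known mark at their ends. The ends left by MspI were filled in with methylated dCTP, so a filled-in cytosine reads as methylated whatever the state of the site. Positions were therefore also sorted by read depth into fragment edges, where the depth changed by over 10% to a neighbouring CpG or no neighbour was near, and positions inside fragments. In the locus 63.3% of positions were edges, against 58.0% in the series, which left 246 positions and 34 windows inside fragments (8 windows in alpha, 4 in beta, 21 in gamma and 1 between beta and gamma). Not every edge position read as methylated. In the mean of both shams, 7.53% of the edges of the locus and 25.98% of those of the series were below 10%. The window chr18:37303001-37304000 of the alpha part shows how far both sets can lie apart. Its 15 inside positions averaged 0.76% to 4.20% over the 8 libraries, and its 4 edge positions averaged 54.3%, 69.9%, 80.1% and 84.4%. A neighbouring inside and edge position in that window, at 37303618 and 37303615, read 4.20% and 80.1%. Levels are therefore given below for all positions and for inside positions, and statements on unmethylated stretches rest on inside positions alone.

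By the mean over positions, the locus was more methylated than the series at large. Over all positions its mean level in the 8 libraries was 57.1% ± 0.87 (SD, n = 8), and inside fragments it was 37.4% ± 1.03. The series averaged 43.8% to 46.1% over all positions, depending on the library, and 20.5% to 22.7% inside fragments. By window the order over all positions was the other way, with a median of 65.2% in the locus and 82.05% in the series. Inside fragments the median window stood at 39.4% in the locus and 3.17% in the series. Of the 3 parts, beta stood highest, at 76.4% ± 1.43 over all positions and 70.04% ± 2.41 inside fragments (SD, n = 8). Both stretches between the parts stood higher. The 4 positions between alpha and beta averaged 96.45%. Between beta and gamma, 25 positions averaged 85.95% and the 6 of them inside fragments 85.8%. The alpha part averaged 52.5% ± 0.82 and 28.5% ± 0.83, and the gamma part 51.3% ± 0.88 and 32.6% ± 1.05. The order of the parts thus depended on the positions used for alpha and gamma, while beta was highest in every library on both sets.

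**Figure D1:**
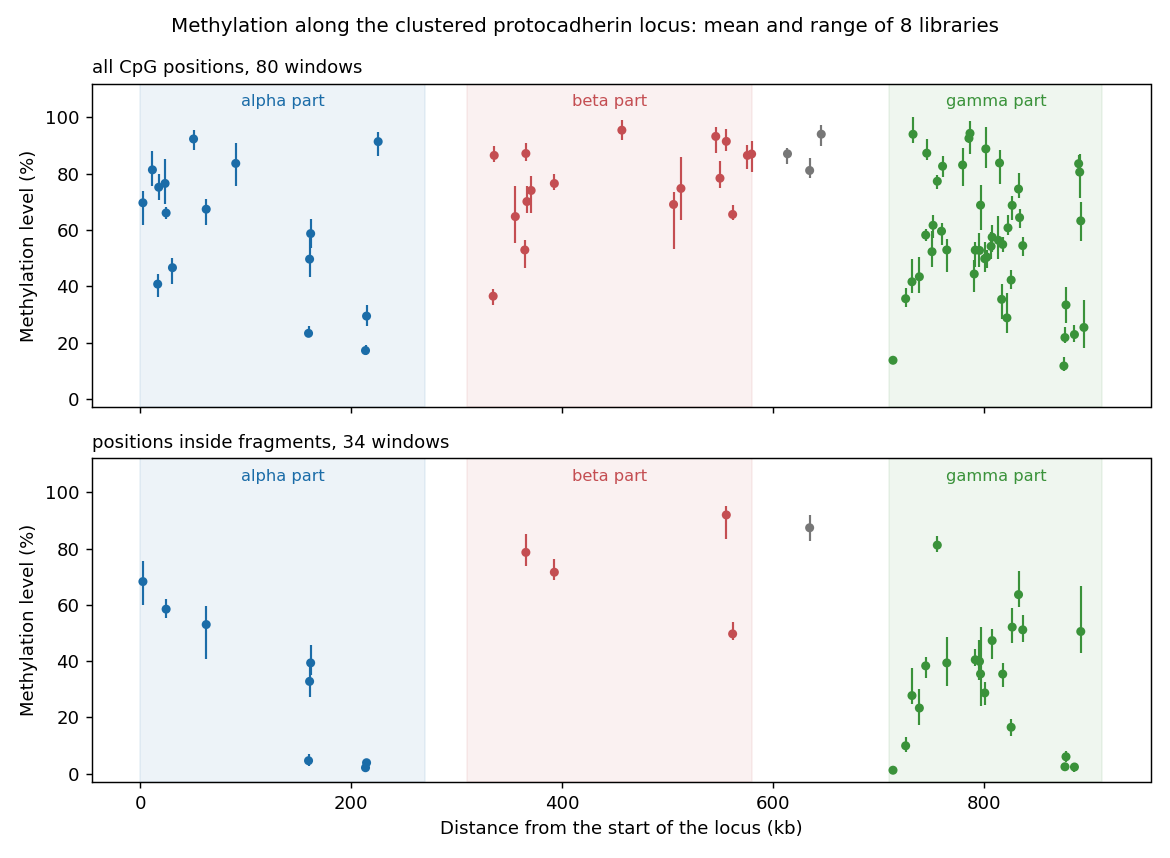
Methylation level (%) of each 1000 bp window by its distance from the start of the locus (kb), for all CpG positions (80 windows, upper panel) and for positions inside fragments (34 windows, lower panel). Points are means of the 8 libraries, vertical lines their range, and colours the alpha, beta and gamma parts with grey between beta and gamma. Near-unmethylated windows appear late in alpha and at both ends of gamma, and none of the 4 beta windows in the lower panel averages below 49.7%.

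Near-unmethylated windows were few and lay in the alpha and gamma parts. Of the 34 windows measured inside fragments, 8 were below 10% in the mean of both shams, 3 in alpha, 0 in beta and 5 in gamma. Such windows made up 23.5% of the locus and 59.3% of the series. The lowest window of all, chr18:37803001-37804000, sits near the start of the gamma part and also holds the most CpG positions of the locus, 27. Its 10 inside positions read 1.5% and 2.28% in UUO with 5AZA, 2.81% and 1.97% in UUO, 1.07% in UUO sham, 0.33% in ischemia 1 week, 0.21% in ischemia 1 month and 0.00% in ischemia sham. All 5 obstruction libraries, sham included, read higher there than all 3 ischemia libraries, by amounts of up to 2.81 points.

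In the alpha part the near-unmethylated windows lay at 2 separate places. The window chr18:37249001-37250000 averaged 4.65% over its 11 inside positions, with libraries between 2.78% and 7.10%. The next kilobase, from 37250001, averaged 32.8% (27.2% to 39.7%) and the one after it, from 37251001, averaged 39.4% (35.0% to 45.8%), so the ranges over libraries did not overlap across the first border. Further along, the windows from 37303001 and 37304001 averaged 2.16% and 3.93% inside fragments, over 15 and 8 positions. The start of the alpha part differed from these. There the 3 windows with inside positions, from 37092001, 37114001 and 37152001, averaged 68.3%, 58.5% and 53.0%.

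Over all positions, the lowest alpha windows in the mean of both shams were those from 37303001 (16.9%) and 37249001 (22.4%). The highest were those from 37140001 (94.3%) and 37315001 (91.9%), with 5 and 4 positions. The window from 37304001 held the most positions of the part, 21, and stood at 28.6%. Over all positions, levels spanned almost the whole scale within the part. The window from 37315001 lies not far beyond the near-unmethylated ones at 37303001 and 37304001. Both of the highest windows had too few inside positions to be measured inside fragments. There, 0 of the 8 alpha windows stood at 70% or more in the mean of both shams, though 5 of 63 inside positions were at 90% or more. No alpha window passed the filters between 37180001 and 37249001, a gap of 69 kb.

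No near-unmethylated position was found in the beta part where RRBS reached it. Of its 30 inside positions, 0 were below 10% in the mean of both shams, 2 lay between 10% and 30%, 8 between 30% and 70%, 16 between 70% and 90% and 4 at 90% or more. Its 77 edge positions, which can read as methylated whatever their state, held 39 at 90% or more and 5 between 10% and 30%. Over all positions its highest windows, from 37546001 and 37635001, stood at 96.7% and 96.2%, and its lowest, from 37424001 and 37454001, at 35.3% and 49.6%. The window from 37424001 lies next to the beta window with the most positions, from 37425001, with 11 positions at 88.4%. The level in that neighbour ranged from 84.1% to 89.8% over the 8 libraries, against 33.5% to 39.0% from 37424001. The 4 beta windows with inside positions, from 37455001, 37482001, 37645001 and 37651001, averaged 78.6%, 71.6%, 91.9% and 49.7%. The part was also thinly covered, with 6.30 windows per 100 kb, against 21.8 in gamma and 5.93 in alpha, and its longest gap was 64 kb.

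The gamma part had mid-level methylation over most of its length, with low windows at its ends. Inside fragments, levels were higher beyond the near-unmethylated window from 37803001. The windows from 37815001, 37821001, 37828001 and 37834001 averaged 9.95%, 27.8%, 23.4% and 38.3%. Of the 21 gamma windows measured inside fragments, 12 stood between 30% and 70% in the mean of both shams, 3 between 10% and 30%, and 1 above 70%. That last one, from 37845001, averaged 81.2% and lies between windows of 38.3% and 39.4%.

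Towards the far end of gamma the level was low again. The window from 37926001 averaged 51.1% over 8 inside positions, with libraries between 46.7% and 56.2%. After a gap of 39 kb without a window, those from 37966001, 37967001 and 37975001 averaged 2.50%, 6.06% and 2.41%, over 9, 5 and 8 inside positions. The window from 37965001, with only 2 inside positions, was the lowest of the part over all positions, at 10.3% in the mean of both shams. Beyond the last low window, the one from 37981001 averaged 50.5% over 3 inside positions. The highest gamma windows over all positions, from 37876001 and 37875001, stood at 94.2% and 94.1% with 4 and 5 positions, none of them inside fragments.

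The locus held more mid-level and fewer low positions than the series. Inside fragments, 32.9% of the 246 positions of the locus lay between 30% and 70% in the mean of both shams, against 6.07% in the series. Positions below 10% made up 28.9% of the locus and 71.4% of the series. By part, mid-level positions were 27.0% of alpha, 26.7% of beta and 37.4% of gamma. By window, 18 of 34 (52.9%) were at mid level inside fragments, against 8.78% of the series, and over all positions 38 of 80 (47.5%), against 16.6%. The locus also held fewer features at 90% or more. Those were 5.69% of its inside positions, against 10.6% in the series, and 12.5% of its windows over all positions, against 36.7%. These shares are a description with no test, since neighbouring positions share fragments and reads.

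**Figure D2:**
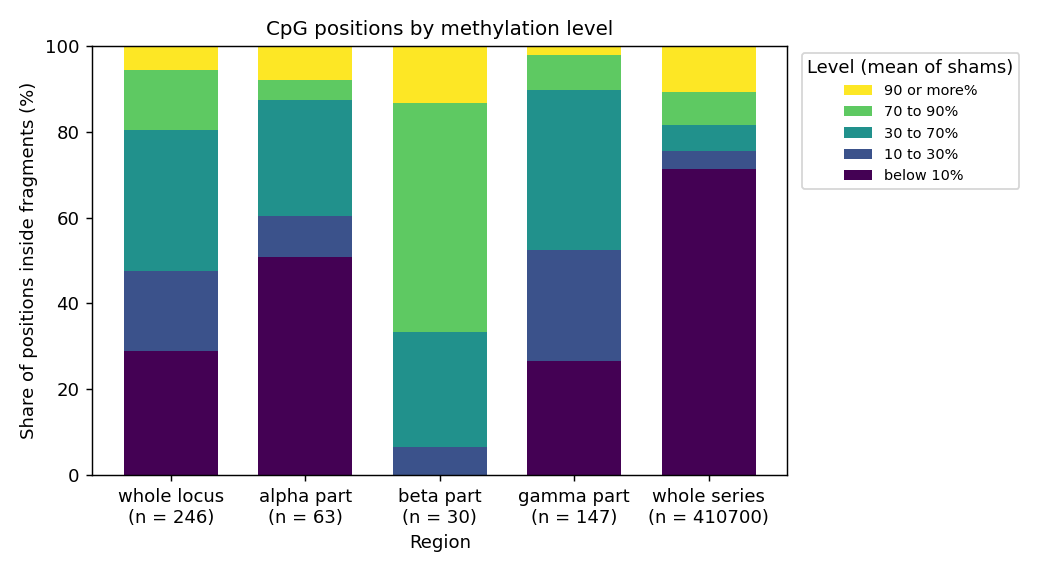
Share (%) of CpG positions inside fragments in 5 classes of methylation level, taken in the mean of both sham libraries, for the whole locus, its 3 parts and the whole series (n positions under each bar). The beta bar has no class below 10%, and the class of 30% to 70% takes 32.9% of the locus and 6.07% of the series.

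The level of CpG-dense windows was taken over 2 different sets of windows, so the values below do not isolate the effect of fragment edges. Inside fragments, the 4 windows of the locus with 10 or more inside positions had a median level of 2.93%, and the 11709 such windows of the series a median of 1.29%. Among those 4, the gamma window from 37897001 averaged 47.3%. Over all positions, edges included, the 21 windows with 10 or more positions had a median level of 54.0%, and the 21503 such windows of the series a median of 18.1%. Many of the 21 had fewer than 10 inside positions. Of these, the gamma windows from 37907001 and 37966001 averaged 35.4% and 2.50% over 9 inside positions each. By part, these medians were 22.4% for 3 windows in alpha, 90.2% for 2 in beta and 54.0% for 16 in gamma. Among windows with fewer positions the order was the other way round, with a median of 72.3% in the locus and 88.5% in the series. Windows with fewer than 10 inside positions had inside medians of 39.3% in the locus and 41.7% in the series. Across windows, the number of positions and the level over all positions had a Spearman rho of -0.43 in the locus (80 windows) and -0.55 in the series. In beta alone rho was -0.06 over 17 windows. These values share depth and libraries and carry no test.

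The pattern along the locus was much the same in every library. Across the 80 windows, pairs of libraries had Pearson correlations between 0.969 and 0.983 (28 pairs), and across the 34 windows inside fragments between 0.963 and 0.989. The SD between windows was 22.4 points, while the median SD of a window over the 8 libraries was 2.99 points. Inside fragments, that median SD was 3.10 points in the locus and 1.45 points in the series, where most windows lie near 0%. Within a window, neighbouring positions differed by a median SD of 24.1 points over all positions and of 9.48 points inside fragments, and a single position varied over libraries by a median SD of 5.00 points.

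**Figure D3:**
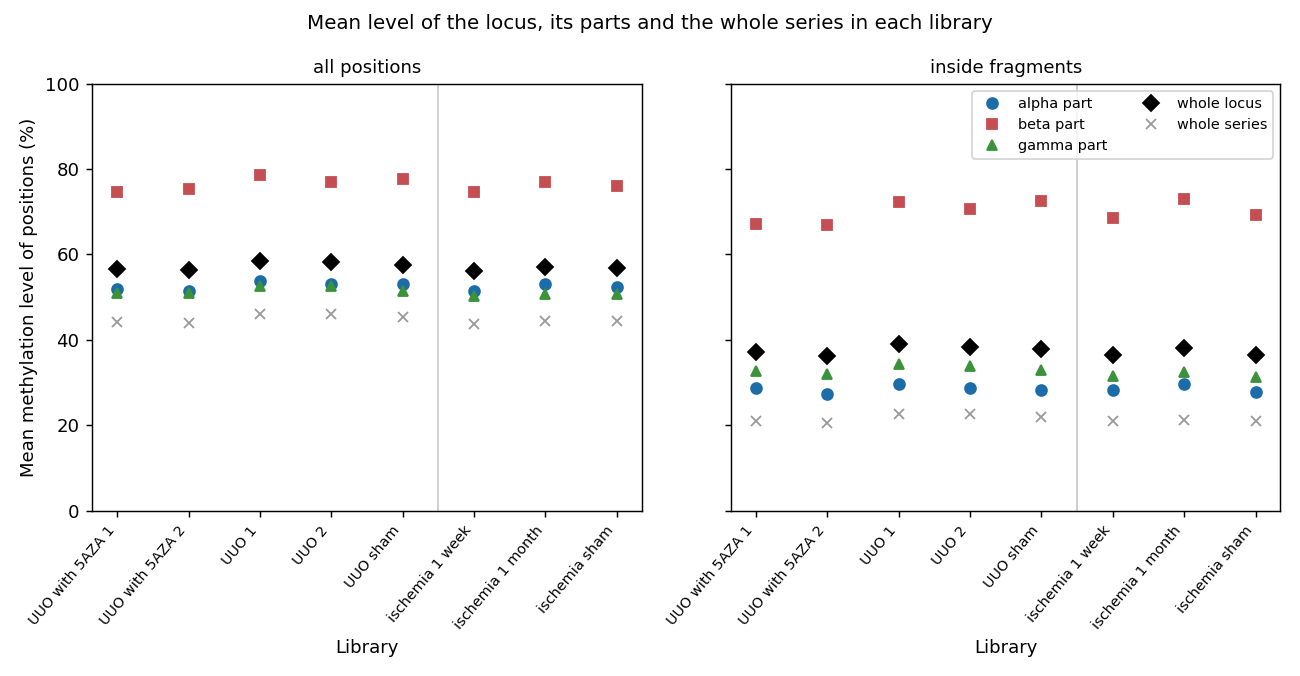
Mean methylation level (%) of the positions in each of the 8 libraries, for the locus, its alpha, beta and gamma parts and the whole series, over all positions (left) and inside fragments (right). Each point is 1 library, the grey line divides the obstruction and the ischemia model, and the beta part lies above the alpha and gamma parts in every library.

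Obstruction was compared with its sham to ask whether the locus gains or loses methylation in a fibrosing kidney. The locus averaged 58.5% and 58.1% in UUO, against 57.6% in UUO sham, a difference of 0.77 points. Both UUO libraries were above the sham, but the 2 shams of the study differed by 0.84 points, so the gap was no larger than that between control libraries. The series averaged 46.1% in UUO and 45.3% in UUO sham. In the parts, UUO and UUO sham averaged 53.4% and 53.0% in alpha, 77.8% and 77.7% in beta, and 52.6% and 51.5% in gamma. With 1 sham library these means have no test.

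No window of the locus was called between UUO and UUO sham, in a quasi-binomial model that called 0.0181% of all windows. A call required an adjusted p under 0.05 (Benjamini-Hochberg over all windows) and a difference of at least 10 points. At an unadjusted p under 0.05 there were 6 of 80 windows (7.5%, against 8.13% of the series). The tools limma and edgeR also called 0 in the locus, and 0 and 1 windows in the whole series. The median window difference was 0.48 points in the locus and 0.47 points in the series, with 43 windows higher and 37 lower in UUO. Inside fragments the median was 1.31 points in the locus and 0.40 points in the series, with 0 windows called against a background of 0.187%. Most inside windows of the series lie near 0%. Of inside windows at 30% to 70% in the ischemia sham, 15 lay in the locus and 2967 in the series. Their mean differences between UUO and UUO sham were 1.96 and 4.53 points.

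In the windows with the largest differences between UUO and its sham, the sham library often stood apart. These windows were picked by their difference from that 1 library, which by itself favours this pattern. The window chr18:37595001-37596000 of beta, with 4 positions, was methylated in 49 of 70 and in 36 of 51 reads in UUO (70.6% in the second library), against 53.1% in UUO sham (difference 17.2 points, SE 8.11, adjusted p = 0.635). The other 5 libraries read 67.5% to 73.5% there, so the UUO sham stood alone, and its 64 reads allow 40.2% to 65.7% (exact binomial interval at 95%). In gamma, the window chr18:37821001-37822000, with 14 positions, read 40.6% and 37.8% in UUO, against 49.8% in UUO sham (difference -10.6 points, SE 2.12, adjusted p = 0.218). All other libraries read 37.8% to 44.3%, so here too the UUO sham stood apart, as it did inside fragments, at 37.6% against 24.7% to 32.6%. Between both shams this window also passed Fisher's exact test on reads at an adjusted p under 0.01 and at least 10 points, a rule that counted 0.638% of all windows. That test used the same UUO sham reads by which the window was picked, so it adds no separate support.

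The window chr18:37885001-37886000 of gamma, with 11 positions, behaved otherwise. It read 59.0% and 58.4% in UUO, against 47.3% in UUO sham, with a difference of 11.4 points, an SE of 2.56 and an adjusted p of 0.271. UUO with 5AZA read 52.0% and 46.8%, ischemia 1 week 49.9%, ischemia 1 month 58.3% and ischemia sham 50.5%. Both UUO libraries and the 1-month library thus lay above the other 5. Inside fragments its 6 positions read 47.5% and 46.6% in UUO, against 37.1% in UUO sham. The remaining windows named by rule were those from 37828001 (48.8% in UUO and 40.7% in UUO sham), 37984001 (25.7% and 35.1%) and 37886001 (62.7% and 70.2%), all with an adjusted p of at least 0.44. All 3 lie in gamma.

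**Figure D4:**
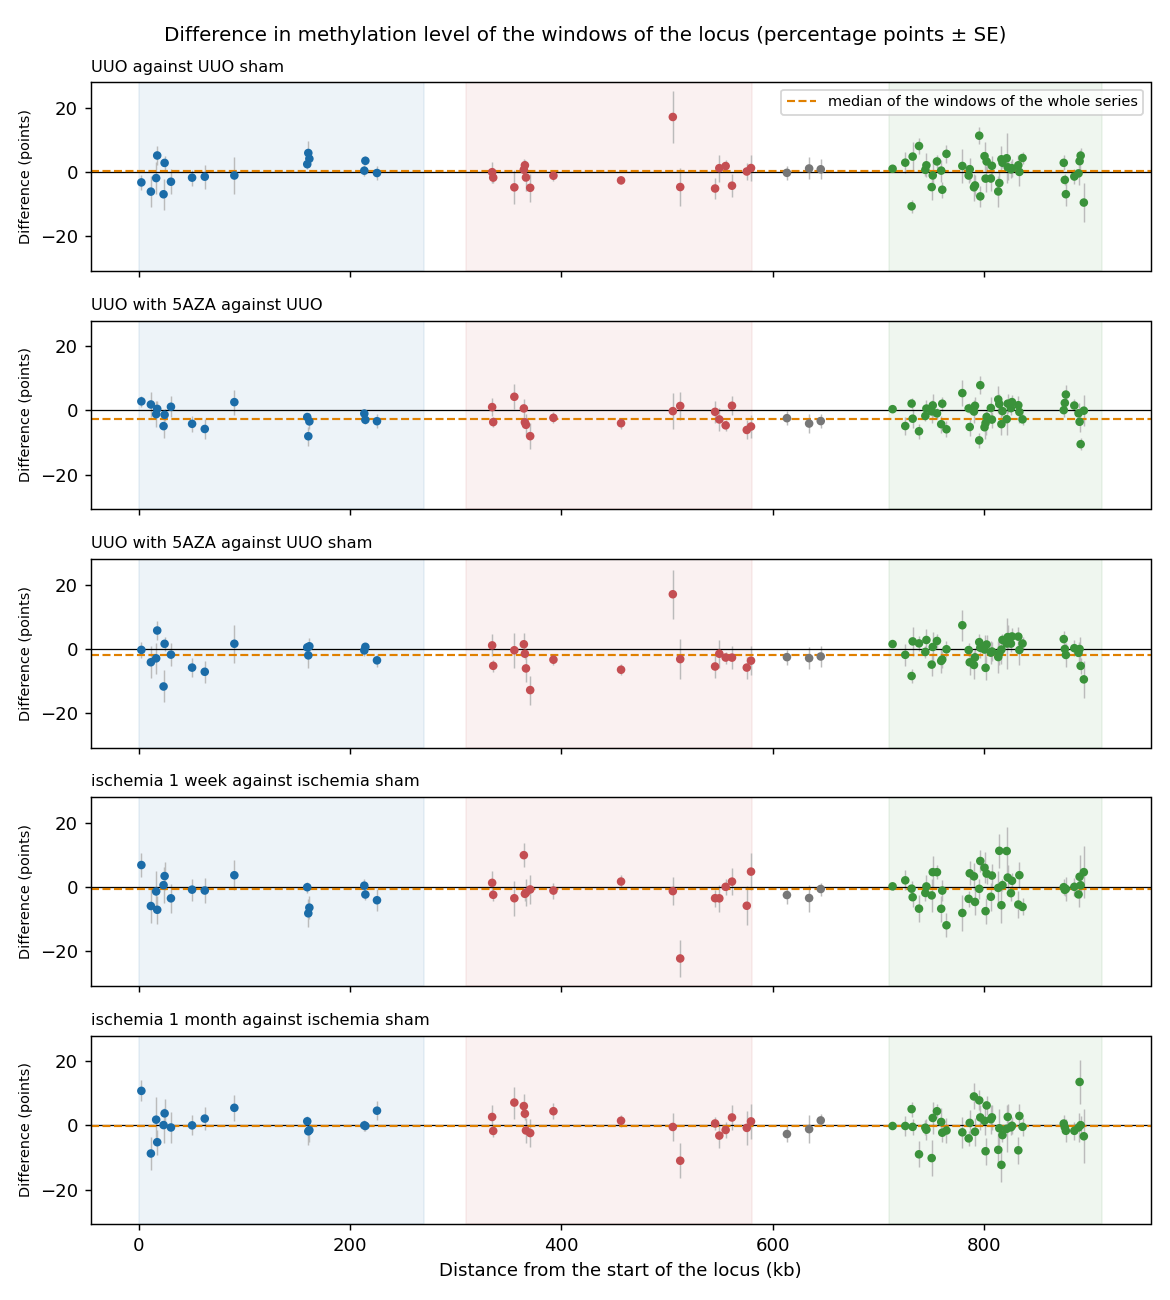
Difference in methylation level (percentage points, first-named group minus second) of the 80 windows by distance from the start of the locus (kb), with 1 panel per comparison. Vertical bars are the SE of the model, colours and shading mark the alpha, beta and gamma parts, and the dashed line is the median of all windows of the series, which for UUO with 5AZA against UUO lies at -2.74 points while the locus has a median of -1.06, an order that turns inside fragments (-0.79 in the series and -1.66 in the locus).

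5AZA was compared within the obstructed kidneys, where both groups had 2 libraries. The locus averaged 56.5% and 56.5% in UUO with 5AZA, against 58.5% and 58.1% in UUO, and the groups did not overlap. The difference was -1.82 points, with a two-sided exact permutation p of 0.333, the smallest that 2 against 2 libraries can give. Its direction depended on the weights, since pooling the reads over positions turned it to 0.23 points. Inside fragments the means were 36.7% ± 0.66 in UUO with 5AZA and 38.7% ± 0.52 in UUO (SD, n = 2 each), and the series averaged 20.7% and 22.6%. By part, inside fragments, UUO with 5AZA and UUO averaged 28.0% and 29.1% in alpha, 67.1% and 71.5% in beta, and 32.3% and 34.04% in gamma. The beta libraries read 67.1% and 67.0% with 5AZA, against 72.4% and 70.6% in UUO, a difference of -4.40 points over 30 positions (exact permutation p = 0.333).

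Window by window, how the locus compared with the series for 5AZA against UUO depended on the positions used. Inside fragments the median difference was -1.66 points in the locus and -0.79 points in the series, with 67.6% of 34 windows lower with 5AZA in the locus and 71.8% in the series. Over all positions the order was the other way, with -1.06 points in the locus and -2.74 points in the series, and 62.5% of windows were lower with 5AZA in the locus, against 79.3% in the series. Over all positions the medians of the parts were -1.69 points in alpha, -2.78 in beta and -0.23 in gamma. In 24 of 80 windows the 5AZA pair was entirely below the UUO pair (30.0%, against 49.2% of the series), and in 5 it was entirely above (6.25%, against 5.61%). Windows of 30% to 70%, classed by the ischemia sham, which is in neither group, had a mean difference of -1.23 points over 36 windows of the locus and of -4.46 points over 15840 of the series. Inside fragments those means were -3.31 points over 15 windows and -8.19 points over 2967. Whether these gaps exceed what lists of this size show was not tested, and the locus and the series also differ in CpG density and depth.

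A single window of the locus was called for 5AZA against UUO, in a comparison that called 0.361% of all windows. That background of 338 windows itself moved to 19 without UUO 1, 127 without UUO 2, 1303 without UUO with 5AZA 1 and 101 without UUO with 5AZA 2. The window chr18:37981001-37982000, near the end of gamma and with 14 positions, read 56.3% (95% exact interval 53.4% to 59.2%) and 61.2% (57.7% to 64.7%) in UUO with 5AZA. In UUO it read 69.9% (67.3% to 72.4%) and 68.6% (65.6% to 71.4%). UUO sham stood between them at 64.1%, and the ischemia libraries at 61.8% to 62.4%. It fell by 10.5 points in UUO with 5AZA, with an SE of 1.86 and an adjusted p of 0.0415. The intervals of both groups did not overlap, but they are too narrow, and the window was picked by this difference.

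The call of that window depended on single libraries, on the windows and on the tool. It was lost without either UUO library (adjusted p = 0.172 without UUO 1 and 0.0747 without UUO 2) and without UUO with 5AZA 1 (0.0739). It was also lost with limma (0.183), with edgeR (0.0622) and with windows of at least 1 position (0.323). With windows of 300 bp no window of the locus was called, and the smallest adjusted p was 0.0804. Inside fragments it was called again, from 3 positions that read 42.7% and 43.4% in UUO with 5AZA, against 66.8% and 59.4% in UUO. That difference was -20.1 points (SE 4.76, adjusted p = 0.0467), against a background of 0.847% of windows. Over the same 3 positions UUO sham read 48.6% (144 reads) and the ischemia libraries 44.4% to 49.5%. A single one of the 3, at 37981804, read 30.8% and 31.6% in UUO with 5AZA, against 64.1% and 53.3% in UUO. UUO sham read 31.3% there, below its level over the 3 positions.

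The other windows named by rule for 5AZA did not pass the test. The window from 37885001, described above for obstruction, read 52.0% and 46.8% in UUO with 5AZA, against 59.0% and 58.4% in UUO, a difference of -9.29 points (SE 2.33, adjusted p = 0.0656). The UUO sham, at 47.3%, lay within the range of the 5AZA libraries. The alpha window from 37250001, next to a near-unmethylated window, read 46.5% and 43.3% with 5AZA, against 57.2% and 48.6% in UUO (difference -8.01 points, adjusted p = 0.138). The largest difference upward was at 37886001, with 71.3% and 69.8% in UUO with 5AZA, against 60.2% and 65.2% in UUO (7.86 points, adjusted p = 0.142), directly beside the window from 37885001. The windows from 37092001 and 37821001 had differences of 2.84 and 2.15 points, with adjusted p of 0.26 and 0.497. In the near-unmethylated gamma window from 37975001, the inside positions read 2.01% and 2.66% in UUO with 5AZA, against 2.20% and 3.52% in UUO, and both groups overlapped.

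**Figure D5:**
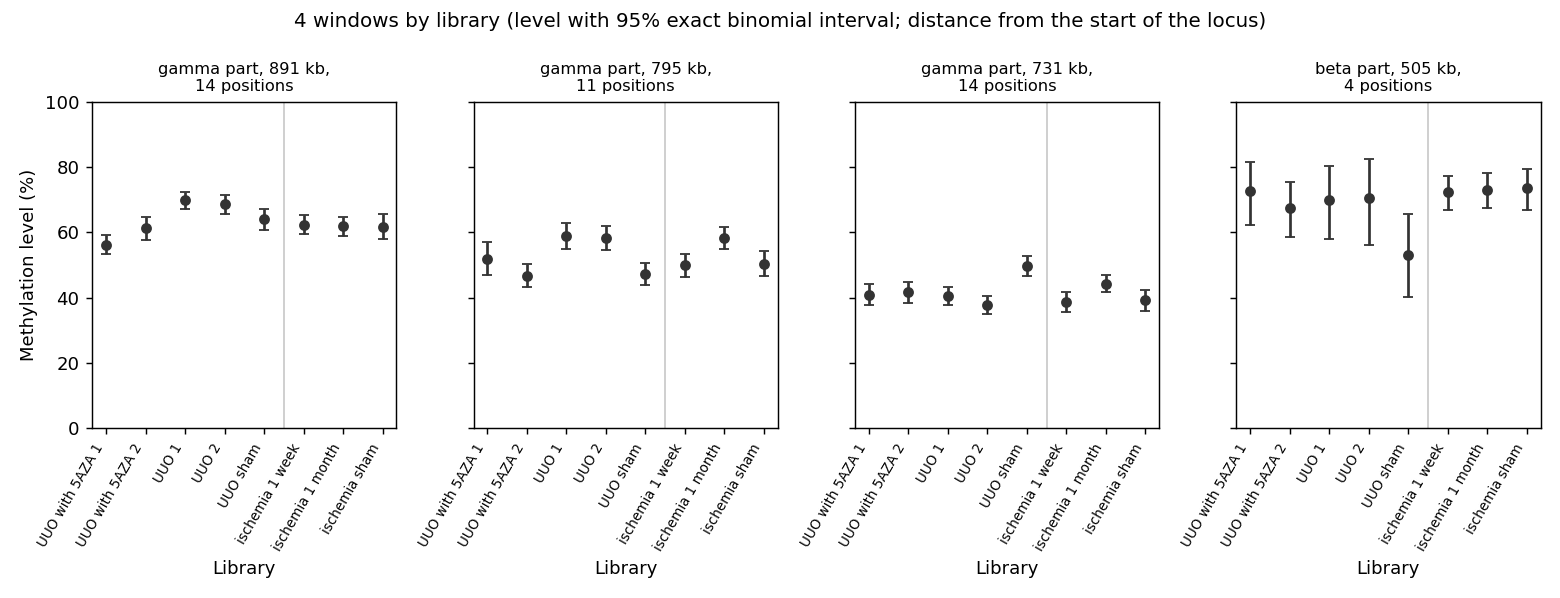
Methylation level (%) of 4 windows in each of the 8 libraries, with 95% exact binomial intervals, each headed by its part, its distance from the start of the locus (kb) and its number of positions. From left, the window called for 5AZA against UUO (56.3% and 61.2% against 69.9% and 68.6%), the next largest difference downward with 5AZA, and the largest downward and upward differences of UUO against its sham, in both of which the UUO sham stands apart.

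Against the sham, the obstructed kidneys with 5AZA gave no call in the locus. This comparison shares its libraries with both of those above, so its values are not independent of them. The locus averaged 56.5% and 56.5% in UUO with 5AZA, against 57.6% in UUO sham, and the series 44.0% and 45.3%. The locus difference of -1.06 points turned to 0.40 points with reads pooled over positions. The model called 0 of 80 windows, with a background of 0.00213%. At an unadjusted p under 0.05 there were 7 windows (8.75%, against 12.54% of the series). The tools limma and edgeR called 0 in the locus, and 0 and 2 windows in the whole series. Inside fragments the model also called 0 in the locus, with a background of 0.00891%. The median window difference was -1.09 points in the locus and -1.99 points in the series, with -3.21 points in beta, where 14 of 17 windows were lower.

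The named windows of that comparison lay in all 3 parts. They were picked by their difference from the UUO sham library, which favours extreme values in the libraries compared. In beta, the window from 37460001 read 66.7% and 65.9% in UUO with 5AZA, against 79.1% in UUO sham (difference -12.8 points, adjusted p = 0.337), and the other 5 libraries read 71.4% to 78.5%. Both 5AZA libraries were the lowest of the 8 there. In alpha, the window from 37113001 read 69.2% and 77.6% in UUO with 5AZA, against 85.1% in UUO sham (difference -11.7 points, adjusted p = 0.384), where the sham was the highest of the 8. The windows from 37595001, 37869001 and 37107001 were higher with 5AZA than in the sham by 17.0, 7.33 and 5.69 points, and that from 37984001 had a difference of -9.51 points, all with an adjusted p of at least 0.397.

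The ischemia libraries were set against their common sham to follow the locus after injury and reperfusion. The locus averaged 56.0% at 1 week and 57.0% at 1 month, against 56.7% in ischemia sham. Their directions depended on the positions and weights, as inside fragments both times were above the sham (0.17 and 1.62 points) and with pooled reads both were below it (-1.74 and -0.80 points). The differences of -0.68 and 0.30 points over all positions are within the 0.84 points between both shams, and with 1 library a group they have no test. Inside fragments the levels were 36.5% at 1 week and 38.0% at 1 month, against 36.4% in ischemia sham. The median window differences were -0.76 points at 1 week and -0.17 at 1 month, beside -0.52 and -0.16 points in the series. Inside fragments the 1-month median was 2.21 points in the locus, with 24 of 34 windows higher, and both shams differed there by a mean of 1.60 points. In the series, where most inside windows lie near 0%, the values were 0.12 points and 54.7%. Of inside windows at 30% to 70% in the UUO sham, 18 lay in the locus and 2931 in the series. Their mean 1-month differences were 2.67 and 2.89 points.

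No window of the locus was called at either time. The model called 0.0% of all windows at 1 week and 0.0% at 1 month. At an unadjusted p under 0.05 there were 5 of 80 windows of the locus at each time (6.25%). In the series these shares were 4.04% at 1 week and 4.59% at 1 month. The tools limma and edgeR called 0 windows in the locus and 0 in the series. Inside fragments the model called 0 windows of the locus at both times, with a background of 0.00594% at 1 week and 0.0297% at 1 month. In that model single libraries are assumed to vary like the UUO and 5AZA pairs. By Fisher's exact test, which compares the reads of 2 libraries and not the conditions, 0 windows of the locus were counted at an adjusted p under 0.01 and at least 25 points, at either time, with a background of 0.0341% at 1 week and 0.0352% at 1 month. With the difference lowered to 10 points, 1 window was counted at 1 week (background 0.277%) and 0 at 1 month (background 0.464%).

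The window counted at 1 week was chr18:37602001-37603000 in beta, with 3 positions. It read 63.6% at 1 week (95% exact interval 55.8% to 71.0%, 165 reads) and 74.9% at 1 month, against 85.8% in ischemia sham (78.0% to 91.7%, 113 reads). The 5 obstruction libraries read 69.2% to 77.9%, so the 1-week library was the lowest of the 8 and the ischemia sham the highest. The window was picked by the difference between those 2 libraries, which favours such extremes. The other windows named at 1 week had a model adjusted p of 1.0. Upward they were those from 37904001 (88.4% at 1 week and 77.1% in sham), 37911001 (35.7% and 24.5%) and 37454001 (56.5% and 46.6%). Downward they were those from 37854001 (45.0% and 56.9%) and 37250001 (46.8% and 54.9%).

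At 1 month the windows named were others for the most part, and the model adjusted p was again 1.0. The first alpha window, from 37092001, read 72.4% at 1 month and 68.5% at 1 week, against 61.6% in ischemia sham. The 5 obstruction libraries read 68.5% to 73.7%, so the ischemia sham was the lowest of the 8, which picking by the difference from that sham favours. Inside fragments this window was counted by Fisher's exact test at 10 points, at 75.6% at 1 month and 59.9% in sham, with a background of 0.942%. Upward the others were those from 37980001 (85.0% at 1 month and 71.4% in sham) and 37880001 (47.2% and 38.2%). Downward they were those from 37906001 (28.4% and 40.6%), 37602001 (74.9% and 85.8%) and 37840001 (49.5% and 59.7%).

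The difference between both injury models was tested directly, as the change of UUO from its sham minus the change of the ischemia libraries from theirs. The model called 0 of 80 windows of the locus, with a background of 0.0%. At an unadjusted p under 0.05 there were 8 windows (10.0%, against 5.09% of the series). The smallest adjusted p in the locus was 0.95. Inside fragments the background was 0.00594%, and the median difference was 0.59 points in the locus and 0.33 points in the series.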

How the data were processed

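Per the labels' protocols, kidney DNA was digested with MspI, repaired with a nucleotide mix that included methylated dCTP, ligated to adapters, converted with bisulfite and sequenced. Bowtie and the build mm9 are named in the submitters' processing notes. The sources used here do not give the Bowtie version, the methylation caller or its filters. For each CpG position the deposited tables give, library by library, a count of reads and a count of methylated reads, as the authors made them, without normalization. They also give the level as a fraction, which the authors rounded to 3 decimals and which lay within 0.0006 of the ratio of both counts at all 12323850 rows of the 8 tables.

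Tables were joined by position (Python 3.11.15, numpy 2.4.6, pandas 2.3.3), keeping positions with at least 10 reads in every library. A position was an edge if, on either side, the depth changed by more than 10% to the next CpG, or if no CpG lay within 250 bp. Only CpGs with at least 40 reads summed over the 8 libraries were used. The change was the sum of the absolute changes in each library, divided by the larger of both summed depths. Mean levels weight positions equally. Methylated and total reads were summed per 1000 bp window with at least 3 positions. A quasi-binomial model with 1 mean per group was fitted to all windows of chromosomes 1 to 19, X and Y, with the dispersion moderated by squeezeVar of limma 3.58.1 (R 4.3.3) and not below 1, and tested by a likelihood-ratio F test with Benjamini-Hochberg adjustment. The difference between injury models was instead tested by a Wald F test on the levels, with the same dispersion and adjustment. All spread comes from the UUO and 5AZA pairs (2 residual and 8.47 prior degrees of freedom). These pairs differed by more than counting error in the locus (mean chi-square per position 1.39 for UUO and 1.26 for 5AZA), so they were not merged as 1 library deposited again. This does not show that they came from separate animals. The model was also run on simulated data, with the outcome not reported here. Single libraries were also compared by two-sided Fisher's exact test (scipy 1.17.1), whose p-values are too small because 1 read counts at several positions. Alternatives were 20 reads, edges left out, windows of 300 bp, windows with at least 1 position, edgeR 4.0.16, limma on the log2 ratio of methylated to unmethylated reads (1 added to each), both shams as 1 group, only the obstruction libraries, a replicate block, pooled or equally weighted means, and each library left out.

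Windows named are all called ones and, per comparison, the 3 largest differences each way with 1 direction in every library pair. For levels, they are the lowest 2 and highest 2 windows of a part and the one with the most positions. The windows with near-unmethylated inside positions and their neighbours were described in addition, after their values were seen. The members, parts and naming rule were chosen with earlier results of these data known. Sequences of the locus are not reported here.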

Additional observations from a re-analysis of the deposited data

Results flagged for a closer look

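In the locus mean over all positions, both UUO libraries were above their sham (0.77 points) and the 1-week ischemia library was below its sham (-0.68 points), which puts the effects 1.45 points apart. The same held in gamma, where UUO against its sham differed by 1.11 points and ischemia against its sham by -0.40 points at 1 week and -0.03 at 1 month, which puts the effects 1.51 and 1.14 points apart. With all positions weighted equally, the ischemia libraries took opposite directions from their common sham at 1 week and at 1 month in the locus, alpha and beta. The effect at 1 week minus that at 1 month was -0.98 points in the locus, -1.64 points in alpha and -2.26 points in beta. Inside fragments 1-week and 1-month ischemia were both above the sham in the locus (0.17 and 1.62 points), in alpha (0.56 and 2.01 points), and in gamma (0.03 and 1.08 points). In beta the opposite directions remained inside fragments, with -0.68 points at 1 week and 3.7 points at 1 month. At fragment edges both were below it in the locus (-1.18 and -0.46 points), as with reads pooled over positions (-1.74 and -0.80 points). None of these differences between mean levels was tested, since 4 of the 6 groups have 1 library, and both shams differ by 0.84 points in the locus mean.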

How the results depend on the processing

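The mean differences of the locus were small beside the choice of weights. With reads pooled over positions, they were 0.17 points for UUO against sham, 0.23 for 5AZA against UUO (against -1.82), 0.40 for 5AZA against sham (against -1.06), -1.74 for 1-week and -0.80 for 1-month ischemia (against 0.30). With windows weighted equally they were 0.12, -1.39 and -1.27 points for the obstruction comparisons in that order, and -0.03 at 1 month. With edges left out, 5AZA against sham was -1.28, 1-week ischemia 0.17 (against -0.68) and 1-month ischemia 1.62 points, and with 20 reads 1-week ischemia was -0.92. Without edges, 1-week ischemia turned to 0.56 points in alpha and 0.03 in gamma, 1-month ischemia to 1.08 in gamma, and UUO against sham to -1.02 in beta (-1.09 with 20 reads). Leaving out 1 library gave 0.58 to 0.95 points for UUO against sham, -2.0 to -1.64 for 5AZA against UUO and -1.08 to -1.03 for 5AZA against sham. For ischemia no library could be left out.

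The 1 window called for 5AZA against UUO became 0 with windows of 300 bp, with at least 1 position, with limma and with edgeR. Leaving out 1 library gave 0 to 1 calls. The 1 call without UUO with 5AZA 1 was another window, 37885001 (adjusted p = 0.0406). Over the whole series, the 338 calls became 1114 with the replicate block, 10 with windows of 300 bp, 50 with edgeR, and 0 with limma and with at least 1 position. Counts of calls in the locus in the 4 other comparisons were 0 under every alternative run. The replicate block also gave 1 call, the same window (adjusted p = 0.0327). The labels give no shared animal or day for equal numbers, so whether the numbers pair the libraries is not known. The pair correlation was 0.07 over all windows and -0.03 in the locus. It cannot exclude a pairing, since differences within a pair also hold counting error. Fisher's exact test at 10 points in place of 25 gave 1 window for 1-week ischemia. Over 306 alternative values of the named windows, 297 kept direction and side of the threshold. That count says little, since all but 1 of the 30 named results were not called to begin with. The limma and edgeR values also took their differences from the main model, so their direction was fixed. The 6 values that lost a call all belonged to the 1 called window. The window from 37886001 reversed with 20 reads, to 5.01 points for UUO against sham and -2.39 for 5AZA against UUO. The causes of these shifts were not tested. Depth per window (a median of 339.5 to 466 reads) and 1 sham library per model limit what these data can show.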

Other observations

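At a few fragment-edge positions of the gamma part the ischemia libraries stood apart from the obstruction libraries, shams included. At 6 of the 671 positions of the locus (0.894%) the 3 ischemia libraries, sham included, lay at least 20 points outside the range of the 5 obstruction libraries, sham included. In the series 645 of 976938 positions did so (0.066%). All 6 were fragment edges, as were 94.0% of the 645, and all 6 lay in gamma. The positions were found by looking for this pattern, so no test is given. The surgical model cannot be told apart here from any other difference between these 2 sets of libraries.

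At 37845656, 37886439 and 37981769 the ischemia libraries read 100% in every case, while the obstruction libraries read 29.2% to 52.8%, 37.9% to 60.8% and 40.9% to 68.8%. At 37926565 the ischemia libraries read 91.5% to 95.2% and the obstruction libraries 46.3% to 55.3%. At 37875939 and 37980993 the order was the other way, with 0.00% to 16.7% and 0.00% to 9.09% in the ischemia libraries, against 65.9% to 76.7% and 62.8% to 71.0% in the obstruction libraries. Depth at these positions was 10 to 95 reads, and at each of them the deepest library was an obstruction library. The ischemia libraries had 10 to 18 reads at 37875939 and 11 to 23 at 37980993, where the deepest libraries had 88 and 86. Over the locus, ischemia 1 month and 1 week had the highest median depths, 76 and 73 reads per position. Whether depth goes with these gaps was not tested. No window of the locus showed such a gap. The position at 37981769 belongs to the window called for 5AZA against UUO, a comparison among obstruction libraries alone, and that at 37886439 to the window from 37886001, whose direction reversed with a minimum of 20 reads.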
